A study of Homo sapiens with 16 samples.

Results

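The comparison described here sets cells given si46 against cells given si45, 2 siRNAs designed against the same gene, TPX2. Its members are the 4 si46 libraries and the 4 si45 libraries, 8 of the 16 libraries in the series, and they were chosen by the siRNA named in the sample labels. All were made from IMR32, an established human neuroblastoma cell line of neuroblast type, neuroblasts being the precursors of sympathetic nerve cells. Both groups carry a TPX2 knockdown and were collected 48 h after the siRNA according to the column headers; the other 8 libraries received a non-targeting control siRNA (siNTC) or a further TPX2 siRNA (si47), with 4 libraries each. All cells belong to 1 line, and the labels do not say whether the 4 libraries of a group came from separate cultures, so every p-value here measures only the spread between these libraries, which may be technical. The comparison asks how far 2 reagents with 1 intended target leave the same transcriptome.

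TPX2 is a spindle protein that binds Aurora kinase A, holds it in its active form and helps microtubules to grow from chromosomes in mitosis. An siRNA is a short RNA duplex whose guide strand is loaded into an Argonaute protein. When the guide pairs along its length with a messenger RNA, that RNA is cut. The guide can also pair through its seed, the short stretch near its 5′ end, with 3′ untranslated regions (3′ UTRs) of other messages, which lowers them in the manner of a microRNA. The sequences of si45, si46 and si47 are not given in the sources used here.

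The 8 libraries held between 5318159 and 7864343 counts over 58787 genes. The totals of si46 (5530942 to 7864343) and si45 (5318159 to 6429681) overlapped and did not differ by a two-sided exact permutation test (p = 0.829, n = 4 and 4, where the smallest possible p is 0.0286). Markers of the adrenergic neuroblastoma state were present in both groups. GATA3, measured in CPM (counts scaled to a common library size), averaged 1180 CPM in si45 and 1230 CPM in si46, and HAND2 823 CPM and 844 CPM. DBH, which makes noradrenaline, averaged 143 CPM in si45 and 170 CPM in si46 (unadjusted p = 0.0179 in edgeR), and CHGA, taken up again with the blocked fits, 700 CPM and 990 CPM. TH, which makes catecholamines, was low in both groups (1.49 to 5.03 CPM). The fibroblast markers PRRX1, COL1A2, LUM and DCN had at most 6 counts in any of the 8 libraries. The fibroblast collagen COL1A1 was present, at 29 CPM in si45 and 42.1 CPM in si46 on average, as were VIM and TWIST1. SNAI2, FN1 and YAP1 were detected at no more than 10.5 CPM. Together the 10 mesenchymal or fibroblast markers summed to 551 to 643 CPM in si45 and 516 to 633 CPM in si46.

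TPX2 itself was lowered to a similar level by both siRNAs. Its CPM was 80.9, 79.4, 121 and 85.1 in si45 replicates 1 to 4, and 90.9, 79.8, 93.8 and 62.2 in si46 replicates 1 to 4, against 297 to 359 in siNTC. The si45 and si46 ranges overlapped, and each lay below every siNTC library. The means were 91.6 ± 19.8 (SD, n = 4) CPM in si45 and 81.7 ± 14.3 (SD, n = 4) CPM in si46. The log2 difference, si46 minus si45, was -0.16 (SE 0.12, 95% interval -0.41 to 0.09), and the exact permutation test on log2(CPM + 1) gave p = 0.514 (two-sided, n = 4 and 4). Without si45 replicate 3, the library at 121 CPM, the difference was 0.002. Each siRNA on its own lowered TPX2 against siNTC, si45 by a log2 difference of -1.84 (edgeR adjusted p = 4.37e-11) and si46 by -2.0 (edgeR adjusted p = 6.01e-12). TPX2 lies on GRCh38 at chr20:31739271-31801805, on the plus strand, in GENCODE release 29.

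Across the transcriptome, 4 of 14193 genes tested differed between si46 and si45 at an adjusted p under 0.05 in edgeR's quasi-likelihood test of all 16 libraries (0.0282%). VDAC1 and SPCS3 were lower in si46 than in si45, and MAPK6 and HSP90B1 were higher. At an unadjusted p under 0.05, 305 genes were higher in si46 (2.15%) and 277 were lower (1.95%). In 191 genes every si46 library lay above every si45 library (1.35%), and in 196 every si46 library lay below (1.38%). The precision of the differences was as follows. For 8019 genes (56.5%) the 95% interval of the difference lay within 1.5-fold in either direction, and for 11111 genes (78.3%) within 2-fold. Among the 5498 genes at an average of 32 CPM or more, 96.8% had an interval within 1.5-fold and 99.7% within 2-fold, and the median SE over all genes tested was 0.18 on the log2 scale. The plot of every gene's difference against its level shows the same narrowing.

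**Figure D1:**
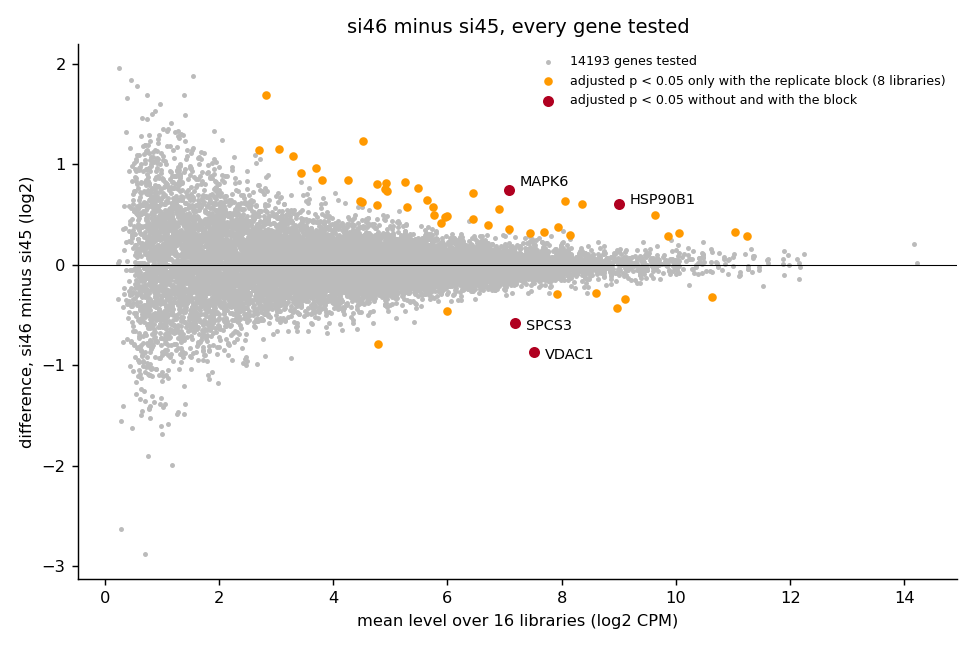
Difference between si46 and si45 (vertical axis, log2) against mean level over 16 libraries (horizontal axis, log2 CPM) for 14193 genes. Red points are the 4 genes with adjusted p under 0.05 without and with the replicate number as a block, orange points those with it only in the blocked fit of 8 libraries. VDAC1 and SPCS3 lie below 0, MAPK6 and HSP90B1 above it, and the spread of the grey points narrows as the level rises.

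VDAC1 encodes the most abundant of the voltage-dependent anion channels, pores of the outer mitochondrial membrane through which ATP and metabolites pass. Its CPM was 238, 221, 201 and 218 in si45 and 117, 122, 113 and 128 in si46. All 4 si46 libraries lay below all si45 libraries, and also below the siNTC range of 173 to 201 CPM and the si47 range of 187 to 217 CPM. The log2 difference was -0.87 (SE 0.085), with an edgeR adjusted p of 8.51e-08. Measured against siNTC, VDAC1 changed by -0.64 in si46 (edgeR adjusted p = 6.84e-06) and by 0.23 in si45 (edgeR adjusted p = 0.228). The gene lies at chr5:133971915-134005133 on the minus strand and overlaps no other annotated gene, and its 13 annotated pseudogene copies had at most 4 counts in any of the 8 libraries. Its relatives VDAC2 (0.13, SE 0.086) and VDAC3 (-0.06, SE 0.12) did not pass the test.

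SPCS3 encodes a subunit of the signal peptidase complex, which removes signal sequences from proteins entering the endoplasmic reticulum (ER). It measured 158, 163, 171 and 161 CPM in si45 and 114, 93.7, 121 and 108 CPM in si46. The groups did not overlap, and si46 also lay below the siNTC range of 161 to 179 CPM. In si47 the values ran from 121 to 170 CPM, so its lowest library was close to the highest of si46. The log2 difference between si46 and si45 was -0.58 (SE 0.097, edgeR adjusted p = 0.00363). Against siNTC it was -0.61 in si46 (edgeR adjusted p = 1.04e-04) and -0.03 in si45 (edgeR adjusted p = 0.941). None of the other subunits passed the test: SPCS1 differed by 0.02, SPCS2 by -0.12, SEC11A by 0.15 and SEC11C by 0.01. SPCS3 lies at chr4:176319964-176332245 on the plus strand.

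MAPK6 encodes ERK3, an atypical MAP kinase that binds and activates the kinase MAPKAPK5. Its CPM was 88.8, 97.9, 88.3 and 84.9 in si45 and 145, 145, 151 and 162 in si46. Here it was si45 that stood apart, since siNTC (130 to 157 CPM) and si47 (141 to 166 CPM) overlapped the si46 range while every si45 library lay below both. The log2 difference between si46 and si45 was 0.74 (SE 0.089, edgeR adjusted p = 5.45e-06). Against siNTC, MAPK6 changed by -0.67 in si45 (edgeR adjusted p = 6.78e-06) and by 0.07 in si46 (edgeR adjusted p = 0.784). Its closest relative MAPK4 differed by -0.18 (SE 0.33) and its partner MAPKAPK5 by 0.06 (SE 0.12), and neither passed. MAPK6 lies at chr15:51952106-52067372 on the plus strand, where 4 genes of the other strand overlap it; whether the counting used strand is not given in the sources used here. The most highly counted of the 4, LEO1, averaged 548 counts and differed by -0.02 (SE 0.10).

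HSP90B1 encodes GRP94, the ER member of the HSP90 chaperone family. It measured 341, 433, 328 and 344 CPM in si45 and 538, 637, 461 and 556 CPM in si46. Every si45 library lay below every si46 library and below the siNTC range of 496 to 603 CPM. The log2 difference was 0.60 (SE 0.10, edgeR adjusted p = 0.00363). Against siNTC, HSP90B1 changed by -0.62 in si45 (edgeR adjusted p = 2.32e-04) and by -0.02 in si46 (edgeR adjusted p = 0.962). The cytosolic chaperones HSP90AA1 (0.06) and HSP90AB1 (0.01), the mitochondrial TRAP1 (-0.07) and the ER proteins HSPA5 (-0.18), CALR (-0.06) and PDIA4 (-0.15) did not pass the test. HSP90B1 lies at chr12:103930107-103953645 on the plus strand. Both of its annotated pseudogenes passed the count filter with at most 36 counts in a library and did not pass the test.

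MAGT1, a magnesium transporter that also serves in the oligosaccharyltransferase of the ER, lay just outside the threshold. It measured 30.9, 34.9, 34.9 and 35.4 CPM in si45 and 24.7, 19.5, 16.8 and 17.3 CPM in si46, so the groups did not overlap. The log2 difference was -0.79 (SE 0.16) with an edgeR adjusted p of 0.0503. It was called with the replicate block in 16 libraries (edgeR adjusted p = 0.00459) and in 8 (edgeR adjusted p = 0.0031). RLE size factors, no low-count filter, at least 10 counts required in every library, and DESeq2 also called it. It was not called by limma-voom, with upper-quartile factors or in the 8 libraries without the block (edgeR adjusted p = 0.0587). Of the fits that left out 1 library, only those without si46 replicate 1 or si47 replicate 1 called it. The si47 libraries ran from 16.3 to 27.9 CPM and siNTC from 29.4 to 33.0 CPM. In bulk RNA, fewer cells that express a gene and less of its RNA per cell cannot be told apart, here or for any gene named.

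**Figure D2:**
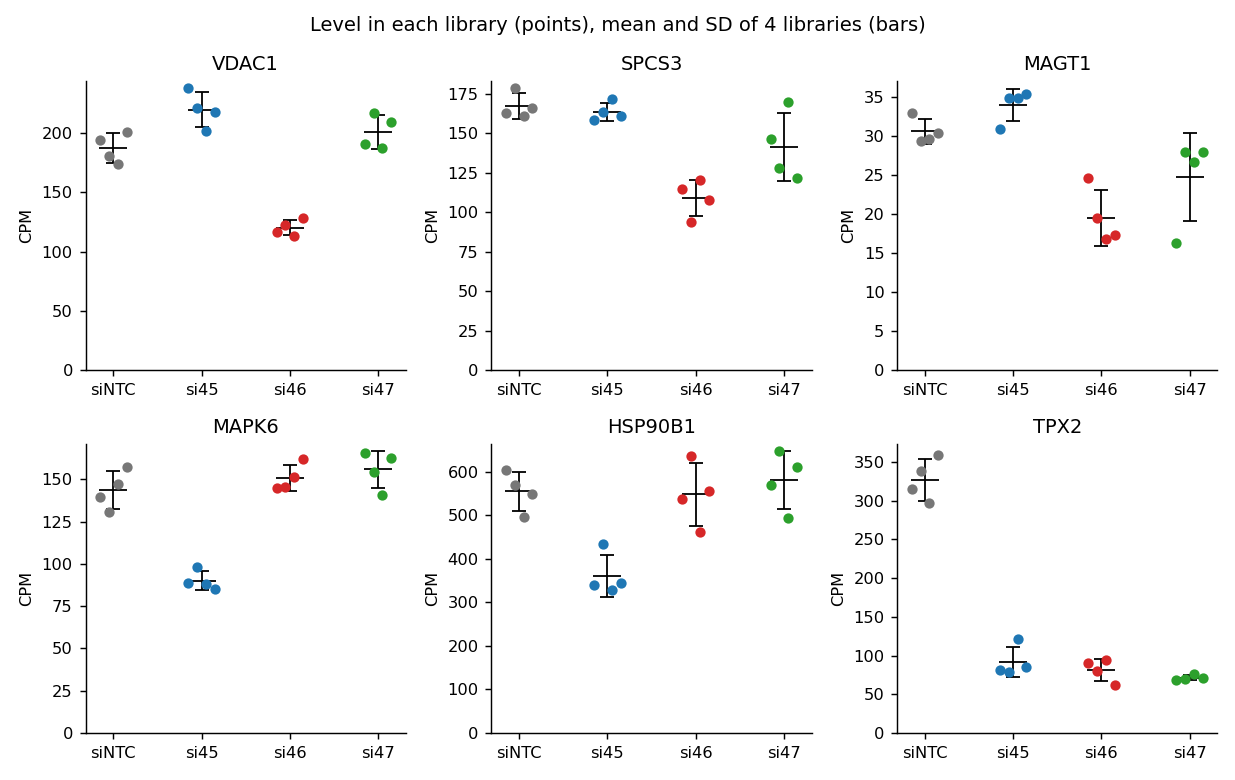
Level (vertical axis, CPM from 0) of 6 genes in each of the 16 libraries, grouped by siRNA on the horizontal axis; points are libraries and bars the mean and SD of 4. VDAC1, SPCS3 and MAGT1 are low in si46 against si45, MAPK6 and HSP90B1 are low in si45 against si46, and TPX2 is low in all 3 siRNA groups, with si45 and si46 overlapping.

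Set against siNTC, si45 changed 190 genes (1.34%) and si46 changed 482 genes (3.40%) in the same edgeR model. These comparisons share the siNTC libraries. 167 genes were called in both, and none of them passed the direct test of si46 against si45 in edgeR, DESeq2 or limma-voom, although 12 had an unadjusted p under 0.05 there (7.19%). Of the 315 genes called against siNTC with si46 and not with si45, 2 passed the direct test (VDAC1 and SPCS3) and 85 had an unadjusted p under 0.05 (27%, against 4.1% of all genes tested). Of the 23 called with si45 and not with si46, 2 passed it (MAPK6 and HSP90B1) and 8 had an unadjusted p under 0.05 (34.8%). The direct test shares the si46 and si45 libraries with the calls that formed these sets, so the shares are a description. For most genes called with 1 of the siRNAs, then, the difference between the siRNAs themselves was not shown.

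With the replicate number as a block in the fit of all 16 libraries, 33 genes passed an adjusted p under 0.05 in edgeR (0.233%), 26 higher and 7 lower in si46. Restricted to the 8 libraries, 5 of 13359 genes passed without the block (0.0374%) and 52 with it (0.389%), 43 higher and 9 lower. The 4 genes above were in all of these counts, and 31 genes were shared by both blocked fits. The block compares each si46 library with the si45 library of the same number. In all 52 genes the 4 same-number differences had 1 sign, against 15.5% of all genes tested, but in only 23 of the 52 did the 2 groups not overlap; the sign count and the block use the same values, so it describes the calls and adds nothing to them. Whether same-numbered libraries shared a culture or a day is not stated, and their deviations correlated only weakly (r = 0.0716, 0.168, 0.247 and 0.115 for numbers 1 to 4, across genes).

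CHGA, the granule protein chromogranin A and a marker of neuroendocrine cells, showed what the block does. It measured 667, 954, 537 and 643 CPM in si45 and 895, 1336, 789 and 941 CPM in si46. The ranges overlapped, because replicate 2 was the highest in both groups and replicate 3 the lowest, yet the 4 same-number differences were 0.42, 0.49, 0.56 and 0.55 on the log2 scale. Its difference was 0.50 (SE 0.21, edgeR adjusted p = 1) without the block and 0.50 (SE 0.059, edgeR adjusted p = 2.52e-06) with it in 8 libraries. VGF, a secreted neuropeptide precursor, had same-number differences of 0.61, 0.40, 0.56 and 0.72 and an edgeR adjusted p of 5.32e-05 with that block. SCG2, another secretory granule protein, gave 0.45 (SE 0.090, edgeR adjusted p = 0.00814) in that fit. With the block in all 16 libraries CHGA (edgeR adjusted p = 9.70e-04) and VGF (edgeR adjusted p = 0.00584) were called and SCG2 was not (edgeR adjusted p = 0.63).

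CDKN1A, the p21 inhibitor of cyclin-dependent kinases and a p53 target, measured 258, 284, 246 and 307 CPM in si45 and 379, 414, 365 and 509 CPM in si46, against 33.6 to 91.2 CPM in siNTC. Both siRNAs lay above siNTC and every si46 library lay above every si45 library. Its call depended on the libraries in the fit. The edgeR adjusted p was 1 in the 16 libraries, 0.689 in the 16 libraries with the block, 0.0125 in the 8 libraries without it and 4.68e-07 in the 8 libraries with it, around a log2 difference of 0.61 (SE 0.24) in the 16 libraries.

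HMOX1, the haem-degrading enzyme heme oxygenase 1, measured 10.2, 24.8, 15.8 and 18 CPM in si45 and 36.5, 49.5, 26.3 and 50.3 CPM in si46, with no overlap. Its difference was 1.24 (SE 0.33), not called in the main fit of 16 libraries (edgeR adjusted p = 0.768). It was called with the block in 8 libraries (edgeR adjusted p = 4.07e-06), and without the block when no low-count filter was used. ASS1, which makes argininosuccinate in the urea cycle, measured 182 to 221 CPM in si45 and 260 to 420 CPM in si46 (0.64, SE 0.14; edgeR adjusted p = 4.09e-06 with that block). ISLR2, an immunoglobulin-domain protein of growing axons, was 0.72 higher (SE 0.088) and STRA6, the cell-surface receptor for vitamin A carrier protein, 0.84 higher (SE 0.12) in the blocked 8-library fit, with overlapping groups for both. The 2 genes are near neighbours, at chr15:74100311-74138540 and chr15:74179466-74212267. A non-coding gene within ISLR2 on the other strand was also called higher in both blocked fits, and it may share reads with ISLR2. With the block in all 16 libraries HMOX1 (edgeR adjusted p = 0.00138) and STRA6 (edgeR adjusted p = 3.03e-04) were called, and ASS1 (edgeR adjusted p = 0.0802) and ISLR2 (edgeR adjusted p = 0.112) were not. RPH3A, a synaptic vesicle protein, was at 3.26 to 3.99 CPM in si45 and at 3.67, 18.9, 10.6 and 14.9 CPM in si46, where replicate 1 lay within the si45 range.

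Lower in si46 were 9 of the 52 calls. PRR11, a gene of cell cycle progression, measured 517, 493, 616 and 553 CPM in si45 and 416, 350, 441 and 409 CPM in si46 without overlap (-0.43, SE 0.093; edgeR adjusted p = 0.114 without the block and 6.34e-05 with it in 8 libraries). KHSRP, an RNA-binding protein of mRNA decay and splicing, differed by -0.33 (SE 0.060) in the blocked 8-library fit, and SUMO3, a small ubiquitin-like modifier, by -0.28 (SE 0.065). With the block in all 16 libraries PRR11 and KHSRP were called (edgeR adjusted p = 6.43e-04 and 0.00864) and SUMO3 was not (edgeR adjusted p = 0.139).

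**Figure D3:**
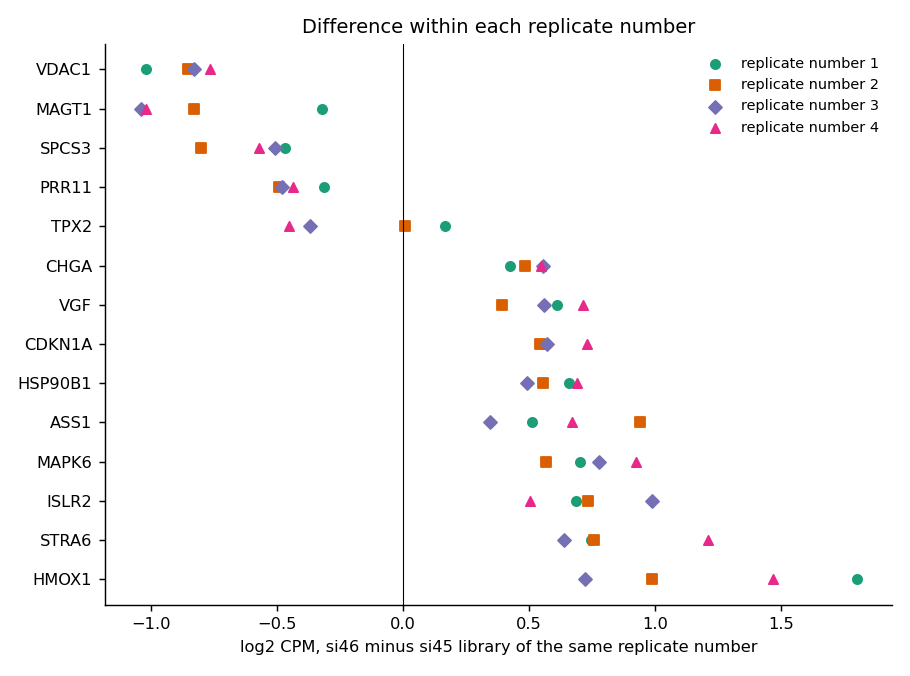
Difference of log2 CPM between the si46 and the si45 library of the same replicate number (horizontal axis) for 14 genes (rows), with 1 point for each of the 4 replicate numbers. All 4 points of VDAC1, MAGT1, SPCS3 and PRR11 lie below 0, those of TPX2 lie on both sides, and those of the other 9 genes lie above 0.

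8 of the 43 genes called higher with the block in 8 libraries were genes of small nuclear or nucleolar RNAs, among them RNVU1-25 (0.39, SE 0.069), SNORD3A (0.83, SE 0.13) and RNU4ATAC (0.27, SE 0.061), and none of the calls in the other direction was; this class was singled out after its values were seen. The 8 calls are 7.92% of the 101 such genes in that fit, against 0.322% of all genes called higher there. With the block in all 16 libraries 2 of the 8 were called, RNVU1-25 (edgeR adjusted p = 0.00341) and RNVU1-28 (edgeR adjusted p = 0.0361), whereas SNORD3A (edgeR adjusted p = 0.647) and RNU4ATAC (edgeR adjusted p = 0.825) were not. Of 131 such genes tested, 97 lay above 0 and 34 below, with a median difference of 0.29 against 0.000183 over all genes; the median was 0.12 without si46 replicate 1 and 0.19 to 0.37 without any other si45 or si46 library. Their summed level was 3105 to 4386 CPM in si45 and 3816 to 5073 CPM in si46, so the groups overlapped. RNU4ATAC alone averaged 2160 CPM in si45 and 2629 CPM in si46. The summed level of the class was 3121 to 4542 CPM in siNTC and 3613 to 5248 CPM in si47. The sum does not show genes that were low in siNTC, with means of 1.55 to 7.03 CPM. Against siNTC, SNORD13 changed by 2.9 in si45 and 3.4 in si46 (log2), and SNORD46 by 3.6 and 4.3. RNVU1-28 changed by 2.7 and 3.4, and SNORD3A by 2.1 (not called) and 2.9. RNVU1-25, RNVU1-26, RNVU1-2A and RNU4ATAC lay between -0.21 and 0.53 and were not called against siNTC. RNAs of this class mostly lack the poly(A) tail on which a 3′ end library is primed, and the U1 variants are near-identical copies whose reads the counting could split. The part of RNA quality or priming in these values was not tested.

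The 20 lowest p-values among genes with a mean of at least 20 counts held 14 genes higher in si46 and 6 lower. Beyond those above, the higher ones included NAP1L1, a histone chaperone, at 837 to 938 CPM in si45 and 1018 to 1203 CPM in si46 (0.31, SE 0.078), and VMA21, an assembly factor of the vacuolar proton pump, at 76.2 to 92.7 CPM in si45 and 103 to 131 CPM in si46 (0.40, SE 0.10). SERTAD2 (0.57), PMEL (0.80), the potassium channel KCNJ6 (0.84) and the transcription factor CREB5 (1.09) were also among them, each without overlap between the groups. CREBL2 (-0.53) and the DNA repair gene FANCA (-0.46) were lower without overlap. None of these 8 genes passed the edgeR adjusted threshold in the main fit of 16 libraries, with adjusted p from 0.142 for SERTAD2 to 0.472 for FANCA. The same fit with no low-count filter called PMEL, KCNJ6 and CREB5, and the fit without si46 replicate 2 called PMEL. DESeq2 called NAP1L1 and SERTAD2, and also ASS1, MAGT1, PRR11 and RPH3A, beside the 4 genes of the edgeR test. At low counts the largest differences with an unadjusted p under 0.05 and no overlap included EFNA4 (1.06), LUCAT1 (1.01), CALCOCO1 (1.05), CCKAR (-0.99) and SERP2 (-0.92), each at 12.4 CPM or less in both group means.

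The medians of 15 lists of genes with a shared role lay between -0.13 and 0.14. Of 34 tested ER chaperone and unfolded protein response genes, HSP90B1 alone was called, and the median difference was -0.04. Of 24 signal peptidase and translocon genes SPCS3 alone was called (median 0.03), of 21 porin and outer mitochondrial membrane genes VDAC1 alone (median 0.06), and of 19 MAP kinase genes and MAPK6 partners MAPK6 alone (median -0.01, or 0.08 with limma-voom). These 4 lists were chosen around the called genes, so the 4 calls are not a result about the lists. None of the 19 cytosolic and mitochondrial chaperones was called (median -0.004), nor any of the 16 genes of the RNA interference machinery (median -0.01), and no member of either had an unadjusted p under 0.05. DESeq2 and limma-voom called no list member beyond the same 4 genes.

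Of the lists that follow the cell cycle, none had a member called between the siRNAs in the fit of 16 libraries. Of 43 S phase genes, 38 lay below 0 and 5 above, with a median of -0.13, and 5, all lower in si46, had an unadjusted p under 0.05 (against 1.95% of all genes): MCM4 (-0.21), MCM5 (-0.30), POLD3 (-0.24), ATAD2 (-0.23) and BRIP1 (-0.34), which encode parts or partners of the replication and repair machinery. Over all genes tested, 7086 lay below 0 and 7107 above. The same list had a median of -0.21 in si45 and -0.36 in si46 against siNTC. Of 53 G2 and mitosis genes, 37 lay below 0, the median was -0.03, and none had an unadjusted p under 0.05; AURKA, the kinase that TPX2 binds, differed by 0.08 (SE 0.15).

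Of 33 p53 target genes, 20 lay above 0, with a median of 0.06, and 2 had an unadjusted p under 0.05, CDKN1A and TP53INP1 (0.42, SE 0.15). Against siNTC the list's median was 1.05 in si45 and 1.18 in si46, so both siRNAs showed it well above the median over all genes (0.000966 and 0.00243). Of 15 interferon and double-stranded RNA response genes tested out of 33, none was called; IFI27 (1.26, SE 0.49) had an unadjusted p under 0.05 at 1.07 to 1.86 CPM in si45 and 2.24 to 4.43 CPM in si46. The ATF4 list (23 genes, median 0.01), the sterol list (26 genes, median -0.06) and glycolysis (20 genes, median 0.006) held no called gene; at an unadjusted p under 0.05 they held PHGDH (-0.25), SREBF2 (-0.27) and none. Of 23 adrenergic genes none was called without the block and CHGA was with it (median -0.04). In this list 3 genes, all higher in si46, had an unadjusted p under 0.05 (against 2.15% of all genes): DBH (0.25), SOX11 (0.20) and CHGA (0.50). MYCN, the amplified driver gene of IMR32, differed by 0.10 (SE 0.15). The 7 mesenchymal and fibroblast genes tested held no call and none with an unadjusted p under 0.05.

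**Figure D4:**
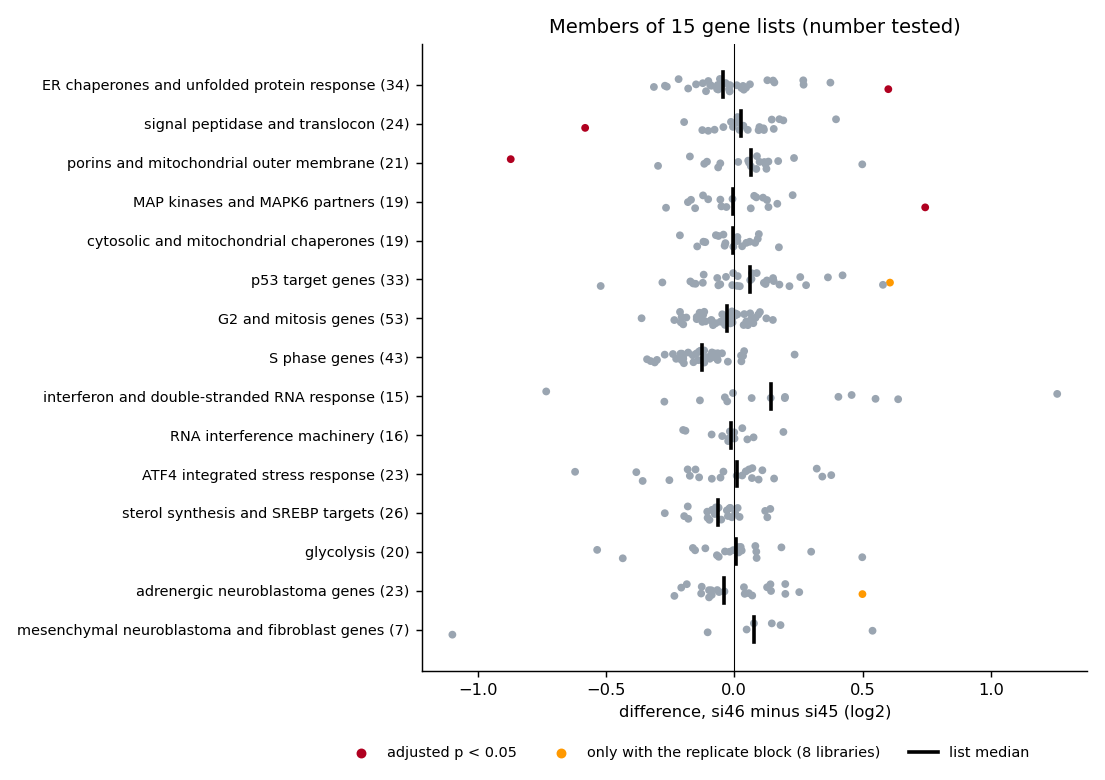
Difference between si46 and si45 (horizontal axis, log2) for each tested member of 15 gene lists (rows, number tested in brackets); each point is a gene and the black bar the list median. The 4 red points (HSP90B1, SPCS3, VDAC1 and MAPK6) lie outside the other members of their lists, orange points are CDKN1A and CHGA, and the medians lie between -0.13 and 0.14.

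Since guide strands can pair with 3′ UTRs through their seed, short words in the 3′ UTRs were set against the differences as a description. The longest GENCODE 3′ UTR of each of 11691 genes was searched on the message strand, and 15947 words of 7 letters held by at least 100 genes were ordered by the difference of the genes that hold them, adjusted for UTR length. CCCCGCG was at place 1, TACATCA at place 2 and TACATCT at place 4. Among the 9181 genes at an average of 8 CPM or more, the order first looked at, TACATCA was at place 1 of 15649, TACATCT at place 3 and CCCCGCG at place 307. At the other end, for genes lower in si46, CCCGACT was at place 1 from the bottom over all genes and at place 2 among better expressed ones, and ACCCCGT at places 3 and 4. The 356 genes that hold CCCGACT had a median difference of -0.04, and -0.04 in si45, -0.06 in si46 and -0.07 in si47 against siNTC. These words were all chosen after values were seen, and no test was made. TACATCA was held by 1185 genes (10.1%), whose median difference was 0.02, against -0.008 in the genes without it. Against siNTC the median of these genes was -0.04 in si45, 0.00098 in si46 and -0.008 in si47. Of the 244 genes with a 3′ UTR that were higher in si46 at an unadjusted p under 0.05, 19.3% held the word, and of the 250 that were lower, 5.2%. The order that picked the word used these same differences, so the shares are a description.

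**Figure D5:**
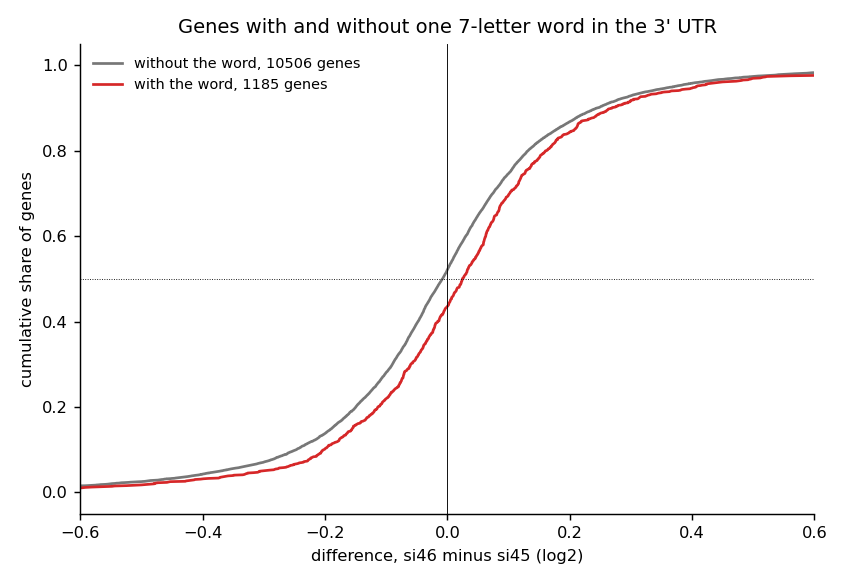
Cumulative share of genes (vertical axis) by the difference between si46 and si45 (horizontal axis, log2) for the 1185 genes whose 3′ UTR holds the word ranked first among better expressed genes (red) and the 10506 without it (grey). The red curve lies slightly to the right around the middle, with a median of 0.02 against -0.008.

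The word occurs in the 3′ UTRs of both called genes that were low in si45, at 2 separate sites in MAPK6 and as 1 site in the 312 bases of HSP90B1, and in those of NAP1L1 and VMA21. CALCOCO1 and CREB5, also among the 20 lowest p-values, hold 1 copy each of the word. They were not low in si45 against siNTC (0.03 and -0.06) and were higher in si46 (1.09 and 1.03). TPX2 does not hold the word, but holds its first 6 letters in 1 place, in the coding sequence. The sites below were chosen after the values were seen, and not by the size of the difference. TPX2 did not differ between the siRNAs, and SPCS3 differed in the other direction. The sites of CALCOCO1 and CREB5 are left out, although their differences between si46 and si45 (1.05 and 1.09) exceeded those of NAP1L1 (0.31) and VMA21 (0.40). Capitals mark TACATCA, or TACATC in TPX2 and SPCS3. Of 2 sites in NAP1L1, 1 is shown. Letters are from GENCODE transcripts on GRCh38, 5′ to 3′ on the message strand.
MAPK6, chr15:52065640-52065668, plus strand: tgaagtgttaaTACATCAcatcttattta
MAPK6, chr15:52066013-52066041, plus strand: agtaattaaggTACATCAttattgtagtt
HSP90B1, chr12:103947700-103947728, plus strand: aatgtgaaattTACATCAtttctttttgg
NAP1L1, chr12:76047667-76047695, minus strand: aaggatgaattTACATCAtttgacaagcc
VMA21, chrX:151409092-151409120, plus strand: gttagaatcttTACATCActagagtcatt
SPCS3, chr4:176328386-176328413, plus strand: atctcttccctTACATCttcatgtattg
SPCS3, chr4:176329860-176329887, plus strand: cttatgtgaaaTACATCactatttaatt
TPX2, coding, chr20:31777594-31777621, plus strand: gaagtgaacttTACATCtgaactacgaa
Around these letters the HSP90B1 site and the NAP1L1 site shown share a run of 8 bases with the TPX2 site. The VMA21 site shares 9, and both MAPK6 sites and the NAP1L1 site not shown share 6. SPCS3, which was low in si46 and not in si45, shares 8 at 1 site and 6 at the other, and in its 3915-base 3′ UTR it holds each of the 7-letter words once. A run of 6 is the least possible here, because every site was picked by those letters. How often other sites with these letters reach 8 or 9 was not counted, so the runs are a description only. The 3′ UTRs of VDAC1 (856 bases) and MAGT1 (2856 bases) hold neither word. Among the 20 genes with the lowest p-values, 9 of the 14 higher in si46 and 1 of the 6 lower held TACATCA or TACATCT, against 19.8% of all genes with a 3′ UTR, whose lengths differ. The words were ranked by these same differences, so the counts describe the choice of words and add nothing to it. Without the siRNA sequences, whether any of these sites pairs with a guide was not tested.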

How the data were processed

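The authors deposited 1 table of raw counts, whole numbers for 58787 Ensembl gene identifiers in 16 libraries, not normalized. Per the labels' protocols, total RNA was extracted with a DNase step and made into 3′ end QuantSeq libraries with 15 PCR cycles, read single-end. Per the submitters' processing notes, FastQC 0.11.7, STAR 2.7.2b, edgeR 3.36.0, limma 3.50.3 and GRCh38 were named; the counting program, its strand setting and any collapse of molecular identifiers are not given in the sources used here, so reads of gene copies and of overlapping genes may be misplaced, and counting errors cover counting only. Mitochondrially encoded genes were not analysed here.

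Genes were kept by filterByExpr (minimum count 10, minimum total 15), normalised with TMM factors and entered, with no covariate, into edgeR 4.0.16 (R 4.3.3), using robust quasi-likelihood dispersions and 1 mean for each of the 4 groups. The contrast was si46 minus si45. p-values were adjusted by Benjamini-Hochberg over all genes tested, and SEs were back-calculated from the log2 difference and its F statistic. CPM uses TMM library sizes. DESeq2 1.42.0 and limma 3.58.1 (voom), other scalings and filters, the 8 libraries alone, the replicate block and leaving out each library were alternatives. No pair of replicates within a group agreed within sampling noise (chi-square per degree of freedom 4.88 to 10.6), so each was counted as 1 sample. The fit was tested on simulated data.

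The comparison, the lists and the rule for naming genes were chosen with earlier results of these data known. The rule took TPX2, every gene at adjusted p under 0.05, the 20 lowest p with a mean of 20 counts or more, the 5 highest and 5 lowest differences among non-overlapping genes at unadjusted p under 0.05, the 2 lowest p of each list, the 10 lowest p of each blocked fit, and 16 relatives and partners of the called genes. SCG2, KHSRP, SUMO3, SNORD3A, RNU4ATAC, MCM4, MCM5 and ATAD2 fall outside it and were chosen after their values were seen. Symbols matched 58434 identifiers and GENCODE release 29 held 58515. In each gene's longest 3′ UTR of at least 30 bases, 7-letter words were ranked; words of other lengths and other contrasts were also looked at. A marker that the cell type list also covered is not reported here.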

Additional observations from a re-analysis of the deposited data

Results flagged for a closer look

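The 4 genes called between the siRNAs are flagged because their response to 1 TPX2 siRNA differed from the response to the other by a direct test: VDAC1 (-0.87), MAPK6 (0.74), SPCS3 (-0.58) and HSP90B1 (0.60), all log2, si46 minus si45, by edgeR's quasi-likelihood test. In 11 of 182 groups of 4 libraries, over the totals, the named genes and the list means, 1 library lay far from the other 3 by Dixon's criterion, which chance alone meets in about 5% of groups. In si45 these were TPX2 with a highest library at 121 CPM, HSP90B1 with a highest at 433 CPM, MAGT1 with a lowest at 30.9 CPM, ASS1 with a lowest at 182 CPM and CALCOCO1 with a lowest at 2.27 CPM. In si46 they were VMA21 with a highest library at 131.3 CPM, SOX11 with a highest at 1203 CPM, YAP1 with a highest at 2.364 CPM, HSF1 with a lowest at 52.86 CPM and HSPA5 with a lowest at 555.8 CPM. The mean log2 CPM of the G2 and mitosis genes was lowest at 6.834 in 1 si46 library, against 6.948 in the highest.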

How the results depend on the processing

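VDAC1, MAPK6, SPCS3 and HSP90B1 kept their call under every scaling, filter, tool and left-out library run; for 74 named genes 25 alternative settings were fitted where the gene passed the filter. The count of 4 genes became 10 with DESeq2 (6 higher, 4 lower), 14 without a low-count filter, 33 with the replicate block in all 16 libraries and 52 with the replicate block in 8 libraries; limma-voom gave 4 (605 at an unadjusted p under 0.05). Leaving out 1 library gave 4 to 7, the 7 without si46 replicate 1, which added ASS1, MAGT1 and RPH3A. The numbers do not formally pair the libraries, since number 1 gave r = 0.0716, although each library correlated best with its own number, a hint from the data. TPX2 ranged from -0.237 to 0.00201 over left-out libraries, reversed without si45 replicate 3. Uncalled values near 0 also changed sign when 1 library was left out: AURKA (-0.014 to 0.236), HSP90AB1 (-0.0182 to 0.0398), CALR (-0.11 to 0.00918), SPCS1 (-0.0482 to 0.093), SPCS2 (-0.269 to 0.0419), SEC11C (-0.109 to 0.117), VDAC3 (-0.144 to 0.0481), MAPK4 (-0.381 to 0.00469) and MYCN (-0.0314 to 0.196). The gap in medians between genes with and without TACATCA, 0.0327, lay between 0.0241 and 0.0456 when 1 library was left out, a check chosen after seeing the data. Depth limits low genes most; the cause of each change was not tested.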
